A study of Mus musculus with 12 samples.

Results

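Of the 33696 genes counted in single T cells from mouse tumours, 8 integrin subunit genes were chosen by name for their part in T cell adhesion and tissue residency, and all 8 were found in the matrices. They are the alpha subunits Itgae (ENSMUSG00000005947), Itga1 (ENSMUSG00000042284), Itga4 (ENSMUSG00000027009), Itgal (ENSMUSG00000030830) and Itgav (ENSMUSG00000027087). The beta subunits are Itgb1 (ENSMUSG00000025809), Itgb2 (ENSMUSG00000000290) and Itgb7 (ENSMUSG00000001281). Each gene was followed by lineage, by cell colour, by day and by treatment.

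Integrins are surface receptors made of an alpha and a beta chain, and a chain reaches the cell surface only with a partner. The Itgae chain (CD103) pairs with Itgb7 and binds E-cadherin on epithelial cells, and Itga1 (CD49a) pairs with Itgb1 and binds collagen; both mark tissue-resident memory T cells. Itga4 (CD49d) pairs with Itgb1 to bind VCAM-1 on inflamed vessels and fibronectin, or with Itgb7 to bind MAdCAM-1 of gut vessels, and serves entry from the blood. Itgal (CD11a) with Itgb2 (CD18) forms LFA-1, which binds ICAM-1 in firm arrest and at the immunological synapse. Itgav (CD51) joins several beta chains and binds RGD motifs, among them that of latent TGF-beta, a cytokine known to raise Itgae expression in T cells.

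The cells came from MC38 tumours, a mouse colorectal carcinoma line, grown in heterozygous Kaede mice, in which every cell makes Kaede, a fluorescent protein whose green form becomes red under violet light. On day 14 after tumour inoculation light was given to the lymph node that drains the tumour, so a red cell among those sorted had passed through this node and a green cell had not been converted. The groups were tumours given 12 Gy of radiation immediately afterwards (RT) and taken 24 h later (RT day 1) or 72 h later (RT day 3), tumours given both radiation and 10 µg of intraperitoneal FTY720 on day 15 and taken at 72 h (RT+FTY720 day 3), tumours of mice given FTY720 without radiation (FTY720 day 3), and untreated tumours (NT day 1 and NT day 3). Each of these 6 groups had 2 replicates of 4 pooled tumours, which gave 12 tumour pools, and red and green live CD90.2-positive cells were sorted from each after bead enrichment of CD4 and CD8 cells. FTY720 acts on sphingosine-1-phosphate receptors and keeps lymphocytes in lymphoid tissue.

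The 24 hashed samples held 17 to 322 cells and 337319 to 7891316 unique molecular identifiers (UMIs, counted transcripts) each, 2740 cells in all, and no barcode was shared between wells. Each replicate used 1 10x well for RT day 1, NT day 1 and NT day 3 and a separate one for RT+FTY720, RT and FTY720 at day 3, so RT against NT at day 3 compares different wells and the well and radiation cannot be told apart there. P-values measure the spread between pools of tumours. The colour of a cell rests on its hashtag, an antibody-borne DNA tag. For replicate 2, tag names stored with the matrices exchange red and green relative to the tag numbers of the labels for 12 of 12 tags, and in replicate 1 for 0 of 12, where the names served to match numbers to sequences. The pair of tags below shows the conflict: the first is named red in replicate 1 and green in replicate 2 for the same tag number, and the second the reverse.
Hashtag C0301: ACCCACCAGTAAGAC
Hashtag C0302: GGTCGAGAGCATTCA
Colours below follow the matrices' names. Lineages, days and treatments with colours summed do not depend on it.

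RefSeq promoters (build GRCm38.p6, which is not the build of the matrices) were found for 5 of the 8 genes, as 250 bases before to 50 after the start. The 4 printed here are the 3 alpha chains with an entry and Itgb7, the partner of Itgae, all of which differed between Treg and CD8 cells below. They are shown with matches to a RUNX core (TGTGGT), an ETS core (GGAAGT) and an SP and KLF box (GGGCGG) in capitals on either strand; these are motifs of factors known to act in T cells.
Itga4 promoter, chr2:79255176-79255475, plus strand: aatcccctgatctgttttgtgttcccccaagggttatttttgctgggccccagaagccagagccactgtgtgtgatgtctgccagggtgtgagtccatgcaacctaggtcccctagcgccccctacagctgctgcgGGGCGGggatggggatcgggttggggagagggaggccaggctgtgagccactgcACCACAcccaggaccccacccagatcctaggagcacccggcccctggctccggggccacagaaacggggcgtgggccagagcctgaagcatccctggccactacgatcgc
Itgav promoter, chr2:83724147-83724446, plus strand: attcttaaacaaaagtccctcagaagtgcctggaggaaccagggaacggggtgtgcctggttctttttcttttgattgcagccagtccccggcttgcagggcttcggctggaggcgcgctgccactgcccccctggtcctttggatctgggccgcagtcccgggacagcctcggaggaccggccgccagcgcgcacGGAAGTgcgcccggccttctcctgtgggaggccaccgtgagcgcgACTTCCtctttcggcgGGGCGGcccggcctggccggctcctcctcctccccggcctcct
Itgb7 promoter, chr15:102231886-102232185, minus strand: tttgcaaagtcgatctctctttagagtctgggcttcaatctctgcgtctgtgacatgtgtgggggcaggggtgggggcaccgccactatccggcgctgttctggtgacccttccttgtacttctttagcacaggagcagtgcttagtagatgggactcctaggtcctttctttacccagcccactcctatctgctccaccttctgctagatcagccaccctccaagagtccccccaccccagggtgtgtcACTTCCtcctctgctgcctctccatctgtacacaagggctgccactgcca
Itga1 promoter, chr13:115101915-115102214, minus strand: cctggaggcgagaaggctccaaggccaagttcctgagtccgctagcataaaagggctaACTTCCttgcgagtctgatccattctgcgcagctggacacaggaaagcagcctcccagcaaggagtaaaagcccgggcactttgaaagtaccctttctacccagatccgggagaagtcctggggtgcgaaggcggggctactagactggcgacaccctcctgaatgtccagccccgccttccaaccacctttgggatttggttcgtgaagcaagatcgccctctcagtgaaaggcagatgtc
Itga4 held 1 RUNX core and 1 SP and KLF box, and Itgav 2 ETS cores and 1 SP and KLF box. Itgb7 and Itga1 held 1 ETS core each, and Itgb1 held 1 SP and KLF box. Of all 32851 promoters in the table, 16.8% held the RUNX core, 23.8% the ETS core and 35.7% the SP and KLF box. A SMAD palindrome (GTCTAGAC), present in 0.213% of promoters, was in none of the 5. The matches printed do not overlap one another, and a match describes letters, not a bound site.

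Cells were placed in classes by UMIs of Cd8a, Cd8b1, Cd4 and Foxp3, and by a naive-like cluster found without the 8 integrin genes. This gave 528 Treg-like cells (regulatory T cells; 366 red and 162 green), 444 CD4 conventional-like cells (188 and 256), 1247 CD8-like cells (670 and 577), 96 cells of the naive CD8-like class and 47 of the naive CD4-like class. A further 217 CD8 cells sat in a cluster led by Eomes that could not be named and are given apart. Foxp3 had a UMI in 0.882% of CD8-like cells and Cd8a in 0.758% of Treg-like cells, but Cd8b1 had one in 14.0% of Treg-like and 6.98% of CD4 conventional-like cells. The gates use these same genes and cap their UMIs, and 39 cells with both Cd8 and Foxp3 lay outside them. The shares are thus limited by the gates, and stray UMIs of other genes may be more frequent. Shares of cells with a UMI at or under these levels are not read as expression below. Levels are UMIs of the gene per 1000000 UMIs (CPM) in the summed cells of a pool and class. They compare 1 gene between classes, since transcripts were counted at the 5′ end.

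The 8 genes fell into distinct orders over the classes. Itgae was highest in Treg-like cells, with a median of 291 CPM over 12 pools and a lowest pool of 145 CPM, above every pool of every other class. It followed with medians of 65.0 CPM in naive CD8-like, 48.4 CPM in CD8-like, 13.1 CPM in CD4 conventional-like and 5.13 CPM in Eomes-cluster cells, neighbours whose pools overlapped, and it was at 0 in 4 of 4 naive CD4-like sums. Itgav had the same summit, 656 CPM in Treg-like cells (424 to 1110), against 219 CPM in CD8-like, 117 CPM in CD4 conventional-like and 26.8 to 33.3 CPM in the naive-like and Eomes-cluster classes. Only the Treg-like pools stood clear of the next class.

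Itga1 led in CD8-like cells with 123 CPM (48.1 to 163). CD4 conventional-like cells stood at 38.6 CPM, Eomes-cluster cells at 29.7 CPM and Treg-like cells at 11.7 CPM, with overlap between neighbours. In naive CD8-like cells it had no UMI in 91 cells thinned to 10000 UMIs, which allows up to 3.30% of cells with a UMI at that depth and does not limit the share of cells with low expression. Itga4 ran the other way and was highest in naive CD4-like (391 CPM), naive CD8-like (384 CPM) and CD4 conventional-like cells (355 CPM), whose pools overlapped. It stood at 185 CPM in CD8-like, 123 CPM in Eomes-cluster and 63.7 CPM in Treg-like cells. The lowest naive CD4-like sum, 337 CPM, lay above the highest CD8-like pool, 334 CPM.

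Among the beta chains, Itgb1 had medians of 817 CPM in CD4 conventional-like, 584 CPM in CD8-like, 276 CPM in Eomes-cluster and 242 CPM in Treg-like cells, against 72.4 CPM in naive CD8-like and 33.3 CPM in naive CD4-like cells. Itgb7 had 552 CPM in Treg-like cells, 277 CPM in CD4 conventional-like, 273 CPM in naive CD8-like, 230 CPM in naive CD4-like, 173 CPM in Eomes-cluster and 132 CPM in CD8-like cells. Neighbours in both orders overlapped. The LFA-1 chains varied least: Itgal ran from 97.8 CPM in naive CD4-like to 305 CPM in CD4 conventional-like cells and Itgb2 from 99.4 to 373 CPM in the same classes. For Itgal, every Treg-like pool (at least 152 CPM) was above every naive CD8-like sum (at most 134 CPM). These classes rest in part on clusters of the same cells, so the levels are a description. When the clusters were built with the 8 integrin genes kept, 30 of the 96 naive CD8-like cells fell in the Eomes cluster. The contrast between those classes thus depended on the genes used for clustering.

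Lineages were then tested on marker gates alone, which use none of the 8 genes and no cluster, and compare cells within the same pools. Treg cells carried more Itgae, Itgav and Itgb7 and less Itga1, Itga4, Itgb1 and Itgal than CD8 cells, so 7 of 8 genes passed the test, where 43.8% of 10222 genes did. Itgae ran over 145, 291 and 554 CPM in Treg cells (lowest, median and highest of 12 pools) and over 3.20, 38.6 and 86.3 CPM in CD8 cells, without overlap (log2 fold change 2.62 ± 0.25 SE, edgeR adjusted p = 2.69e-08). Its partner Itgb7 ran over 228, 552 and 874 CPM in Treg cells and over 104, 146 and 220 CPM in CD8 cells, again without overlap (1.73 ± 0.11, adjusted p = 6.43e-11). Itgav ran over 424, 656 and 1110 CPM in Treg cells and over 123, 184 and 301 CPM in CD8 cells, and was higher by 1.79 ± 0.13 (adjusted p = 5.08e-10).

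The collagen receptor chain Itga1 separated Treg and CD8 cells in the opposite direction. It ran over 0, 11.7 and 29.0 CPM in Treg cells and over 53.9, 108 and 131 CPM in CD8 cells, with no overlap (-2.85 ± 0.22, adjusted p = 9.95e-10). Itga4 ran over 0, 63.7 and 104 CPM in Treg cells and over 53.6, 175 and 256 CPM in CD8 cells, ranges that overlap (-1.66 ± 0.12, adjusted p = 2.3e-10). The log2 fold change of Itgb1 was -1.26 ± 0.14 (adjusted p = 2.24e-07) and that of Itgal -0.72 ± 0.09 (adjusted p = 6.22e-07). Itgb2 missed the threshold at -0.15 ± 0.09 (adjusted p = 0.151) and passed with DESeq2 (-0.18, adjusted p = 0.0200).

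**Figure D1:**
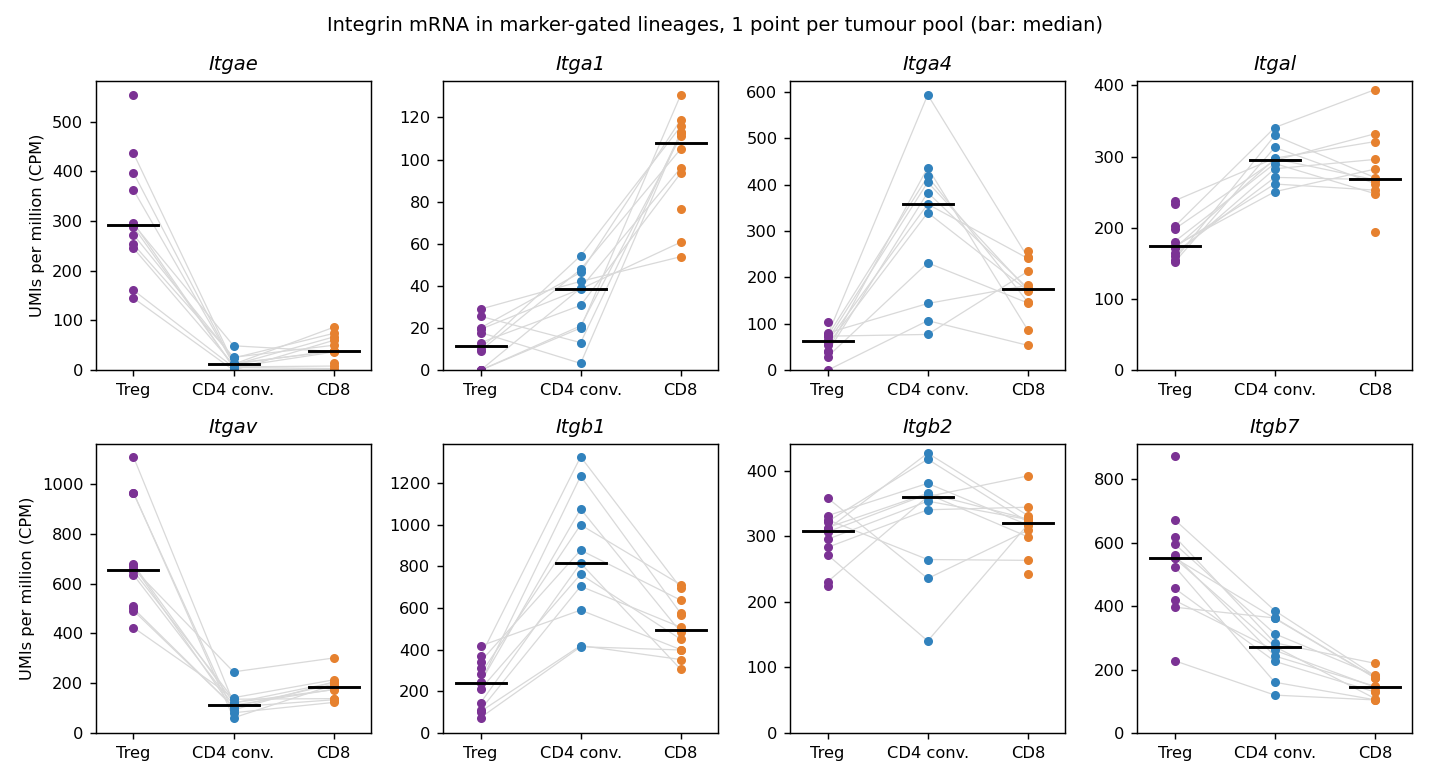
Integrin mRNA in marker-gated Treg, CD4 conventional and CD8 cells, in CPM (y axes start at 0). Each point is 1 tumour pool, grey lines join cells of the same pool and bars are medians; the Treg points of Itgae, Itgav and Itgb7 lie above all CD8 points, and those of Itga1 below them.

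CD4 conventional cells differed from CD8 cells in 6 of 8 genes, where 35% of 10069 genes passed. Itga4 ran over 77.2, 358 and 594 CPM in the 11 pools with CD4 conventional cells, against the CD8 values above, and was higher by 0.84 ± 0.20 (adjusted p = 0.00244). In the replicate 2 pools alone this was 0.74 ± 0.29 with adjusted p = 0.0810. Its partners Itgb1 (0.61 ± 0.10, adjusted p = 8.26e-05) and Itgb7 (0.74 ± 0.09, adjusted p = 5.31e-06) were higher as well. Itgae at 0, 12.0 and 49.1 CPM (-1.93 ± 0.25, adjusted p = 6.83e-06), Itga1 (-1.76 ± 0.23, adjusted p = 8.97e-06) and Itgav (-0.73 ± 0.11, adjusted p = 4.55e-05) were lower. Itgal (adjusted p = 0.918) and Itgb2 (adjusted p = 0.750) did not pass.

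Treg and CD4 conventional cells differed in 6 of 8 genes, where 26.8% of 8821 genes passed. Itgae was higher in Treg cells by 4.30 ± 0.22 (adjusted p = 6.99e-11), Itgav by 2.48 ± 0.17 (adjusted p = 2.06e-09) and Itgb7 by 0.90 ± 0.12 (adjusted p = 1.01e-05). Itga4 was lower by a log2 fold change of -2.57 ± 0.21 (adjusted p = 1.76e-08), Itgb1 of -1.92 ± 0.16 (adjusted p = 2.35e-08) and Itgal of -0.75 ± 0.09 (adjusted p = 4.98e-06). Itga1 was at -1.04 ± 0.39 (adjusted p = 0.0538) and passed without NT day 1 replicate 1 (-1.29, adjusted p = 0.0110), without NT day 1 replicate 2 (-1.38, adjusted p = 0.0129), with DESeq2 (-1.30, adjusted p = 0.0260) and without the pool block (-1.11, adjusted p = 0.0173). The 3 lineage comparisons share cells, so their directions are not independent. Markers of NK and gamma delta T cells reached a summed 1022 CPM in 1 green CD4 conventional-like pool, against medians of 2.55 CPM in red and 8.11 CPM in green CD4 conventional-like pools, and their part in these results was not tested.

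Lists of related genes were read against the 43.8% of all genes that passed between Treg and CD8 cells. Of 19 other integrin subunit genes, 7 had counts enough to be tested, some only through the lineage where they are high, so their directions are not counted. Itgb8 and Itgax are such genes, so their levels are given without a test. Itgb8, whose product with Itgav activates latent TGF-beta, had a median of 152 CPM (72.9 to 360) in Treg cells. In CD8 cells it had 0.232 CPM (0 to 2.18). Itgax (CD11c) had a median of 0 in Treg cells, with 3 UMIs in all, and 19.9 CPM in CD8 cells. Itgb3, another partner of Itgav, had 58.7 CPM in Treg cells and 12.9 CPM in CD8 cells (1.90 ± 0.19, adjusted p = 4.58e-08).

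Of 25 genes of integrin activation, all tested, 8 were higher and 5 lower in Treg cells than in CD8 cells (median log2 fold change -0.04, against -0.05 over all genes), a share near that of all genes. Examples are Rap1b, a small GTPase that switches integrins on (0.90 ± 0.07), and Rassf5, an effector of that GTPase at LFA-1 (-0.63 ± 0.07). In the TGF-beta pathway 7 of 17 tested genes of 20 listed were higher and 2 lower (median 0.31), again near the share of all genes. Tgfbr1, a receptor chain, was higher by 2.17 ± 0.16, and Tgfbr2, the other chain, was at -1.30 ± 0.09. Lrrc32 (GARP), which holds latent TGF-beta on Treg cells, had 67.2 CPM in Treg cells and 0.585 CPM in CD8 cells. Among 14 integrin ligands, 4 could be tested, of which Icam1 was higher (1.03 ± 0.08). Cdh1, the E-cadherin bound by Itgae with Itgb7, had 0 CPM at the median in Treg cells and 22.5 CPM in CD8 cells. Cdh1, and Lrrc32 in the count of 7 above, had counts enough to be tested through the lineage where they are high. Their directions are therefore not read as a result on these lists. Myeloid markers summed to medians of 34.0 CPM in red and 20.7 CPM in green Treg-like cells, against 51.4 CPM and 33.9 CPM in red and green CD8-like cells, with S100a8 at 0 in each.

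Partner chains were found in the same cells in proportions that followed these levels. After thinning each cell to 10000 UMIs, Itgae and Itgb7 were both detected in 62.1% of 475 Treg-like cells, in 5.75% of CD4 conventional-like cells, in 16.5% of CD8-like cells and in 25.3% of naive CD8-like cells. Itga1 and Itgb1 were both detected in 6.53% of Treg-like, 13.4% of CD4 conventional-like and 41.3% of CD8-like cells. The 5.75% in CD4 conventional-like and the 6.53% in Treg-like cells lie under the Cd8b1 shares given above. They are not read as expression. For Itga4 with Itgb7, the pair that recognises gut vessels, the shares were 20.8% in Treg-like, 38.4% in CD4 conventional-like and 20.1% in CD8-like cells, against 80.5% in naive CD4-like and 73.6% in naive CD8-like cells. The LFA-1 chains were both detected in 67.4% of Treg-like, 77.8% of CD4 conventional-like and 83.2% of CD8-like cells. In CD8-like cells with an Itgae UMI, Itga4 was detected in 15.3% ± 7.76 of cells, against 39.6% ± 8.92 of cells without one (SD, n = 9 pools), lower in 9 of 9 pools. Itgb7 was detected in 69.1% ± 17.4 and 50.3% ± 10.4 of the same cells, higher in 8 of 9 pools. Itga1 showed no such split, with 46.1% ± 13.5 and 43.0% ± 8.66, and lower in 6 of 9 pools. These shares take red and green cells together, and the colours differed in both Itgae (29.7% of red and 12.0% of green cells) and Itga4 (22.0% and 48.5%). The split was not tested within a colour. Joint detection of transcripts does not measure a heterodimer.

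**Figure D2:**
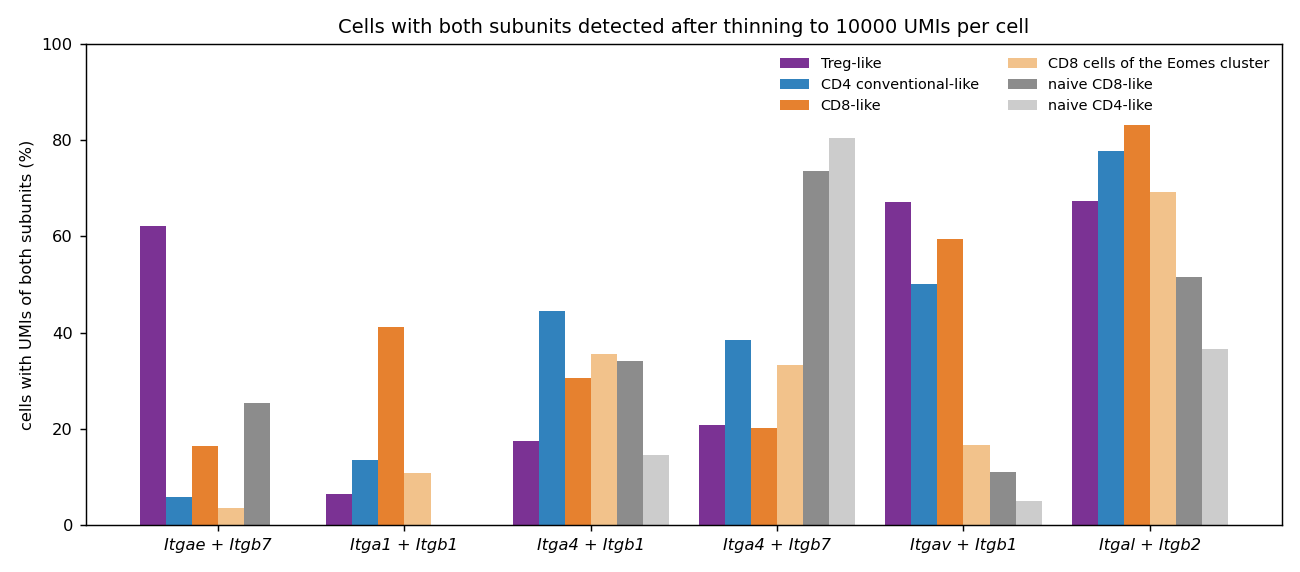
Share of cells with a UMI of both chains of each known heterodimer, after thinning to 10000 UMIs, in percent, by class. Treg-like cells have the highest share for Itgae with Itgb7 (62.1%), CD8-like cells for Itga1 with Itgb1 (41.3%), and the naive-like classes for Itga4 with Itgb7.

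The colours set cells that had been in the draining node against unconverted cells. In CD8-like cells, red cells had more Itgae and less Itga4 and Itga1 than green cells of the same pools, so 3 of 8 genes passed, where 6.27% of 8688 genes did. Itgae ran over 4.90, 60.1 and 193 CPM in red cells and over 0, 24.8 and 134 CPM in green cells (lowest, median and highest of 12 pools). The ranges overlap, and red was higher in 10 of 12 pools (1.39 ± 0.33, adjusted p = 0.0178). The exceptions were RT day 1 replicate 1, where red cells had 40.1 CPM and green cells 41.7 CPM, and RT day 3 replicate 2, where red cells had 42.7 CPM and green cells 134 CPM.

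Itga4 ran over 28.3, 68.9 and 206 CPM in red cells and over 61.3, 271 and 509 CPM in green cells (means 80.0 ± 50.4 and 281 ± 152 CPM, SD, n = 12). It was lower in red cells in 11 of 12 pools (-1.72 ± 0.33, adjusted p = 0.00560), the exception being RT day 1 replicate 1 where red cells had 206 CPM and green cells 61.3 CPM. Itga1 ran over 47.3, 99.5 and 148 CPM in red cells and over 50.2, 150 and 208 CPM in green cells, with the red value below the green one in 9 of 12 pools (-0.68 ± 0.17, adjusted p = 0.0254). Itgb1 (0.41 ± 0.15, adjusted p = 0.105), Itgb7 (0.58 ± 0.21, adjusted p = 0.108) and Itgb2 (0.21 ± 0.08, adjusted p = 0.134) had larger values in red in 9 of 12 pools each without passing. Itgal (0.03 ± 0.10) and Itgav (-0.01 ± 0.17) lay near 0. At an unadjusted p below 0.05 the count was 6 of 8.

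**Figure D3:**
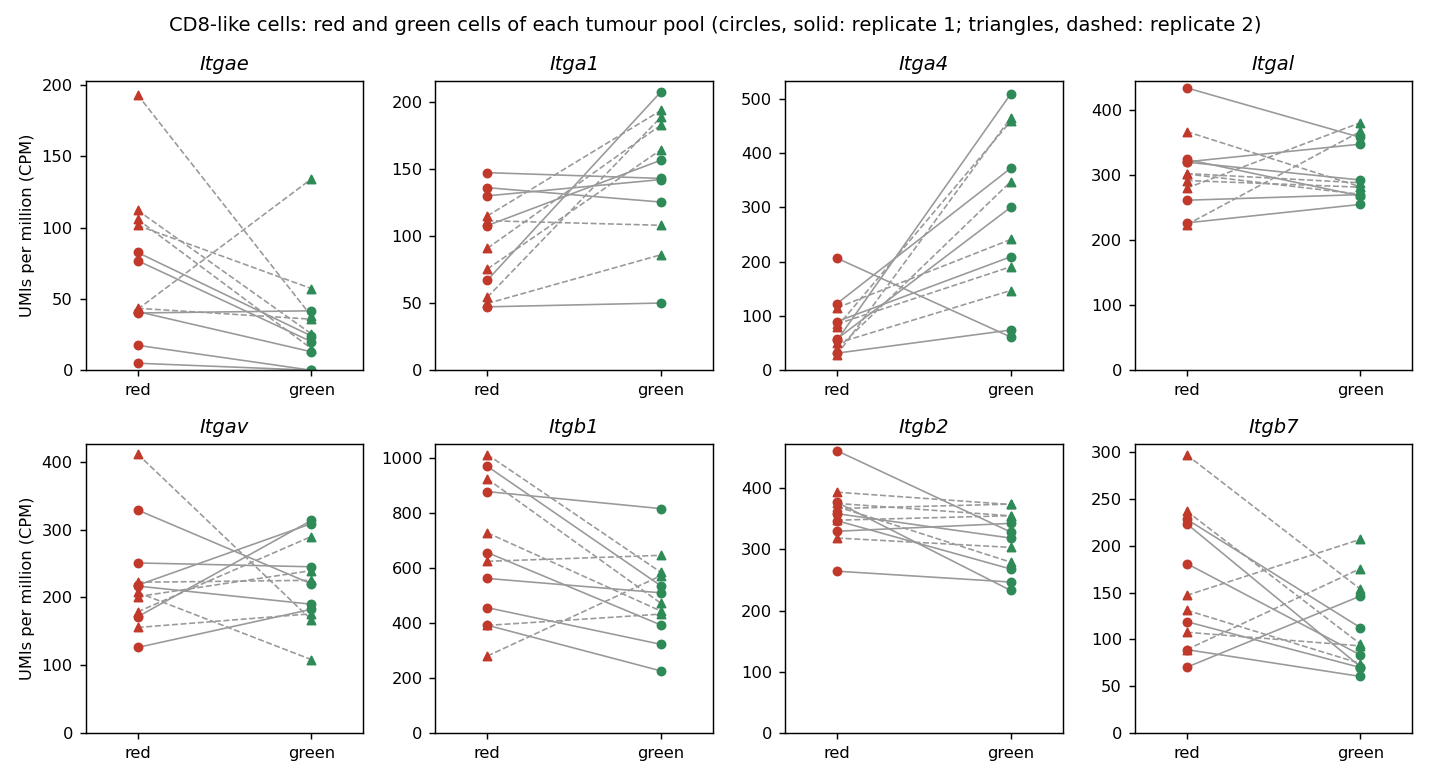
Integrin mRNA in red and green CD8-like cells, in CPM. Lines join the 2 colours of 1 tumour pool, with circles for replicate 1 and triangles for replicate 2; Itga4 lies lower in red in 11 of 12 pools and Itgae higher in red in 10 of 12.

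The calls depended on the pools. Itga4 stayed past the threshold whichever pool was left out, whereas Itgae and Itga1 did not. Itgae missed it without NT day 1 replicate 1 (1.34, adjusted p = 0.0521), NT day 3 replicate 2 (1.17, adjusted p = 0.0580) or RT day 1 replicate 2 (1.26, adjusted p = 0.0678), and without the pool block (1.23 ± 0.41, adjusted p = 0.0783). Itga1 missed it without any of those 3 pools (adjusted p = 0.0715, 0.0561 and 0.0708), without NT day 1 replicate 2 (adjusted p = 0.0789) and without RT+FTY720 day 3 replicate 2 (adjusted p = 0.0511). Without RT day 3 replicate 2, Itgb1 (0.54 ± 0.11, adjusted p = 0.00814) and Itgb7 (0.72 ± 0.19, adjusted p = 0.0313) passed as well.

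In the replicate 1 pools alone, where names and labels do not conflict, Itgae stood at 1.47 ± 0.39, Itga4 at -1.30 ± 0.48 and Itga1 at -0.41 ± 0.24 (6 pools; adjusted p = 0.313, 0.546 and 0.817, with 1 of 7930 genes past the threshold). In the replicate 2 pools alone, Itgae stood at 1.36 ± 0.45 (adjusted p = 0.111), Itga4 at -2.04 ± 0.32 (adjusted p = 0.00931) and Itga1 at -0.91 ± 0.19 (adjusted p = 0.0274). All 3 genes thus had the same sign in both replicates under the matrices' names. With the label colours all 3 turned sign and none of the 8 passed (Itgae -0.28 ± 0.49, Itga4 0.56 ± 0.57 and Itga1 0.29 ± 0.23, adjusted p = 1.00 each), and 1 of 8688 genes passed.

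At equal depth the shares of cells ran in the same directions. With cells thinned to 10000 UMIs, Itgae was detected in 29.7% of 640 red and 12.0% of 526 green CD8-like cells, Itga4 in 22.0% and 48.5%, Itga1 in 37.7% and 55.1%, and Itgb7 in 64.1% and 45.6%. Without thinning Itgae was detected in 36.9% of red and 14.7% of green cells, at median depths of 23090 and 21754 UMIs. Both chains of Itgae with Itgb7 were detected in 22.7% of red and 8.94% of green cells, and both chains of Itga4 with Itgb1 in 19.8% and 43.3%. The LFA-1 chains were both detected in 83.3% and 83.1%.

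Red and green CD8-like cells were spread over different clusters. The cluster led by Styk1 and Klrh1, with 222 CPM of Itga1 over all its cells, held 10.1% of red and 33.4% of green CD8-like cells. The cluster led by Gzmk and Ccl5, with 528 CPM of Itga4, held 12.4% of red and 27.6% of green cells. A cluster led by Cphx1, Tppp3, Gzma and Cd7, with 197 CPM of Itgae, 1783 CPM of Itgb1 and 561 CPM of Itgb7, held 14.5% of red and 1.39% of green cells, and clusters led by Nrgn (23.0% of red, 7.80% of green) and by Il2 and Ccl3 (17.2% and 1.04%) were mostly red. Values within clusters are therefore given side by side.

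Inside the Gzmk and Ccl5 cluster, Itga4 had a median of 246 CPM in red and 672 CPM in green sums and lay below green in 5 of 5 pools with both. Itgae had 107 CPM in red and 26.6 CPM in green (higher in red in 4 of 5), Itga1 64.1 and 157 CPM (lower in 4 of 5), and Itgb1 1064 and 743 CPM (higher in 5 of 5). In CD8-like cells of the interferon-response cluster, led by Ifi204 and Rsad2, Itga4 had 59.3 CPM in red and 630 CPM in green, lower in 3 of 3 pools, Itgae 169 and 13.6 CPM, higher in 3 of 3, and Itga1 9.36 and 109 CPM, lower in 3 of 3. In the Styk1 and Klrh1 cluster, Itga1 had 236 CPM in red and 223 CPM in green, with red above green in 3 of 4 pools, and Itga4 had 41.9 and 86.8 CPM, with 2 of 4 pools in each direction. In the Nrgn cluster Itga4 had 77.3 CPM in red and 110 CPM in green, lower in 3 of 4 pools, and Itga1 82.2 and 69.6 CPM, higher in 3 of 4. In the Styk1 cluster Itgae had 76.6 CPM in red and 10.3 CPM in green, higher in 3 of 4 pools. In the Nrgn cluster it had 58.7 and 37.3 CPM, also higher in 3 of 4. The cluster led by Ifi204 and Ifi211 had 2 pools with both colours. Itga4 was higher in red in 2 of 2 there (33.9 and 32.1 CPM), and Itgae and Itga1 in 1 of 2. The difference in Itgae thus recurred in most pools of the Gzmk, interferon, Styk1 and Nrgn clusters. That in Itga4 did so in the Gzmk, interferon and Nrgn clusters, and that in Itga1 in the Gzmk and interferon clusters only. The clusters led by Cphx1 and by Il2 and Ccl3 had too few green sums for values by colour, so nothing is known of the difference there. Medians take all sums of a colour, not only pools with both. In the interferon cluster these were 5 red and 7 green sums, with 3 pools holding both. No test was made within clusters.

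Lists of other adhesion and trafficking genes were read against the 6.27% of all genes that passed between colours, and most listed genes did not pass. Of 4 other integrin subunits tested among 19, 1 was higher in red CD8-like cells, Itgax at a median of 31.3 CPM in red and 12.6 CPM in green (1.39 ± 0.30, adjusted p = 0.0115). Itgax is also a myeloid marker, and the 12 myeloid markers together ran over 17.7, 51.4 and 117 CPM in red and 21.8, 33.9 and 46.0 CPM in green cells, with S100a8 at 0; their part in this result was not tested. Of 12 recirculation genes tested among 15, 4 were higher in red and 0 lower (median 0.65, against -0.02 over all genes), among them S1pr1, the receptor for exit towards sphingosine-1-phosphate (1.14 ± 0.28, adjusted p = 0.0211), and Cx3cr1 (0.69 ± 0.17, adjusted p = 0.0210).

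Of 17 residency genes tested among 18, 2 were higher in red, Xcl1 (2.10 ± 0.53) and Nr4a1 (1.44 ± 0.26), and 2 lower, Zfp683 (Hobit, a residency transcription factor, -1.41 ± 0.22, adjusted p = 0.00164) and Cdh1 (-2.13 ± 0.38, adjusted p = 0.00371). In the TGF-beta list 2 of 16 tested were higher, the corepressor Tgif1 (1.06 ± 0.20, adjusted p = 0.00542) and the inhibitor Smad7 (0.47 ± 0.12, adjusted p = 0.0274). Of 13 selectin ligand and other adhesion genes tested among 17, 3 were higher in red, Crtam (2.01 ± 0.36), Pecam1 (0.55 ± 0.12) and Alcam (0.98 ± 0.28). Among 25 activation genes 1 was lower, the adaptor Skap1 (-0.36 ± 0.10, adjusted p = 0.0447), and the kindlin, talin and Rap1 genes of that list did not pass. Of 14 ligands 4 were tested, and Cdh1 was lower, as above. Spp1 (osteopontin, bound by Itga4 and Itgav integrins) had a median of 0.235 CPM in red and 10.7 CPM in green. It had 21 UMIs in red and 906 in green cells, so it had counts enough to be tested through green cells, and its direction is not counted.

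In the other classes no integrin gene passed between colours with edgeR. In Treg-like cells (7 pools with both colours), 0 of 8 passed, where 0.589% of 8318 genes did, with 2 of 8 at an unadjusted p below 0.05 and 0 by DESeq2. Itga4 had medians of 48.7 CPM in red and 97.5 CPM in green with red below green in 6 of 7 pools (-1.11 ± 0.28, adjusted p = 0.0773), and Itgb1 had 339 and 169 CPM, higher in 6 of 7 (0.69 ± 0.20, adjusted p = 0.112). Itga4 passed without NT day 1 replicate 1 (-1.35 ± 0.22, adjusted p = 0.0320) and with at least 10 cells per sum (-1.47 ± 0.22, adjusted p = 0.0307), and Itgb1 without RT day 3 replicate 1 (0.86 ± 0.17, adjusted p = 0.0365). Itgae had 322 CPM in red and 306 CPM in green Treg-like cells (0.06 ± 0.14). The clusters also differ here: the one led by Areg and Ccr3 held 60.7% of red and 26.5% of green Treg-like cells, and the one led by Frmd5 and Il10 20.2% and 68.5%.

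In CD4 conventional-like cells (9 pools) 0 of 8 passed, where 0.0141% of 7070 genes did, with 4 at an unadjusted p below 0.05 and 0 by DESeq2. Itgae was at 1.44 ± 0.58 and Itga1 at -1.44 ± 0.62, against 1.39 ± 0.33 and -0.68 ± 0.17 in CD8-like cells. In the Eomes cluster (4 pools) 0 of 7 tested genes passed, where 0.208% did, with 1 at an unadjusted p below 0.05 and 0 by DESeq2, and Itgae was too low to test. In naive CD8-like cells (2 pools) 0 of 5 tested passed, where 0.054% did, with 0 at an unadjusted p below 0.05 and 0 by DESeq2, and log2 fold changes from -0.55 ± 0.39 for Itgb1 to 0.31 ± 0.31 for Itgb7. The colour difference itself was compared between Treg-like and CD8-like cells, and 0 of 8 genes passed, where 0.0644% did (1 at an unadjusted p below 0.05, 0 by DESeq2). For Itgae it was -1.32 ± 0.41 (adjusted p = 0.261), and without RT day 3 replicate 2 it was -1.61 ± 0.31 (adjusted p = 0.0336). The colour difference in CD8-like cells was not shown to differ between NT day 3 and NT day 1 or between RT and NT at day 1, where 0 of 8 and 0% of all genes passed in each (0 at an unadjusted p below 0.05 and 0 by DESeq2).

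**Figure D4:**
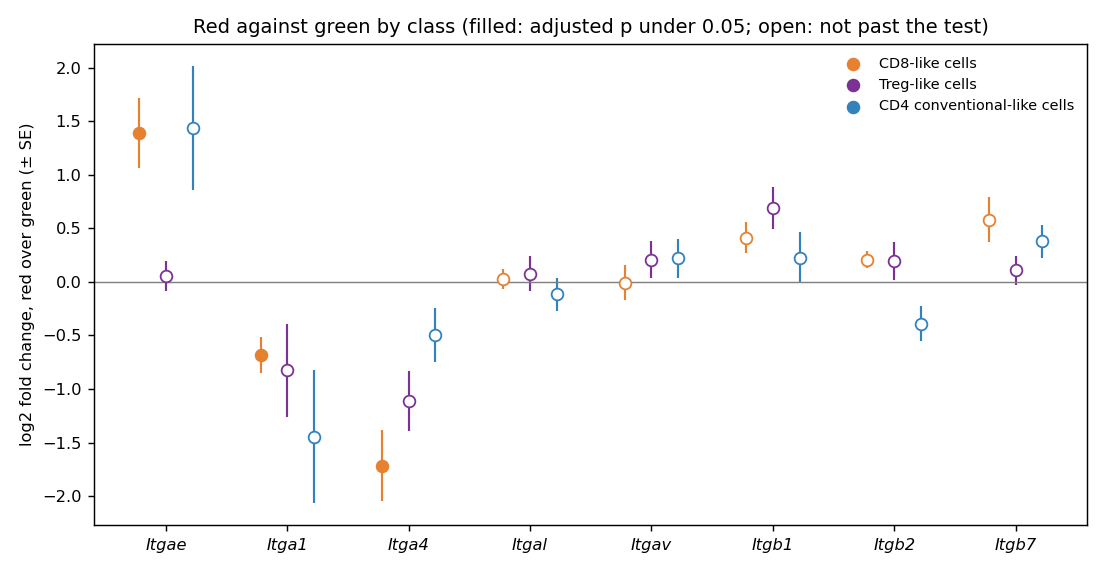
Log2 fold change of each integrin gene, red over green, in CD8-like, Treg-like and CD4 conventional-like cells, with bars for 1 SE. Filled points passed the adjusted threshold: Itgae, Itga1 and Itga4 in CD8-like cells.

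Radiation was tested with both colours summed, since the treated wells at day 3 held few cells. At day 3, CD8-like cells of irradiated tumours had less Itga1, with 48.1 and 62.9 CPM in the RT pools and 145 and 163 CPM in the NT pools, without overlap (-1.41 ± 0.17, adjusted p = 0.00106). It was the 1 of 8 genes to pass, where 4.43% of 10224 genes did. These values rest on 41 and 55 Itga1 UMIs from 25 and 42 cells of RT pools, and on 467 and 883 UMIs from 136 and 236 cells of NT pools in other wells. Itgb1, its partner, had 418 and 384 CPM in RT pools and 533 and 555 CPM in NT pools without passing (-0.37 ± 0.17, adjusted p = 0.310).

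At day 1, within shared wells, Itga1 had 116 and 111 CPM in RT pools and 132 and 130 CPM in NT pools (-0.19 ± 0.14), and 0 of 8 genes passed, where 0.0685% did, with 0 at an unadjusted p below 0.05 and 0 by DESeq2. The change in the radiation effect between the days was -1.21 ± 0.22 for Itga1 (adjusted p = 0.0682, where 0.117% of genes passed), and it passed with DESeq2 (-1.21, adjusted p = 0.00122) and with upper-quartile scaling (-1.29, adjusted p = 0.0490). Under FTY720 at day 3, within shared wells, Itga1 had 131 and 115 CPM in RT+FTY720 pools and 138 and 110 CPM in FTY720 pools, ranges that overlap (0.07 ± 0.18, adjusted p = 0.892). The RT day 3 pools had the lowest Itga1 of the 12 pools.

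With FTY720 the gene that passed was Itgb1, with 305 and 409 CPM in RT+FTY720 pools and 839 and 634 CPM in FTY720 pools, without overlap (-0.97 ± 0.18, adjusted p = 0.0168; 1 of 8, where 2.77% of genes passed). The FTY720 values come from 17 and 50 cells and the RT+FTY720 values from 28 and 46 cells. The call was lost without FTY720 day 3 replicate 1 (-0.78, adjusted p = 0.0855), without RT+FTY720 day 3 replicate 1 (-0.80, adjusted p = 0.124) and without the cells of mixed clusters (-0.87, adjusted p = 0.101). Without the mixed clusters Itga4 passed instead (-2.81 ± 0.39, adjusted p = 0.00442), and without RT+FTY720 day 3 replicate 2 it passed beside Itgb1 (-2.14 ± 0.46, adjusted p = 0.0476).

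For radiation at day 3 in CD8-like cells the other lists were read against the 4.43% of all genes that passed, and few listed genes did. Of 5 other integrin subunits tested, 1 was higher, Itgb3 (2.07 ± 0.26, adjusted p = 0.00129), which was also higher under FTY720 (3.01, adjusted p = 0.00119). Of 17 residency genes 3 were lower, Xcl1 (-4.28 ± 0.51), Zfp683 (-3.13 ± 0.41) and Cdh1 (-2.80 ± 0.49), and 0 higher. Of 14 recirculation genes tested 1 was higher, the IL-7 receptor chain Il7r (0.98 ± 0.23, adjusted p = 0.0302). Of 13 selectin ligand and other adhesion genes tested, 3 were higher, Cd2 (0.75 ± 0.17), Selplg (0.45 ± 0.11) and Pecam1 (1.05 ± 0.27), and 1 lower, Crtam (-1.67 ± 0.42). Of 4 ligands tested, Cdh1, the gene already counted above, and Spp1 had lower values. Spp1 had UMIs in 6 of 12 red and 8 of 12 green sums, so it may have been tested through pools where it is high. Its direction is therefore not counted. All these values compare RT and NT pools of different wells. None of the 25 activation genes and none of 16 TGF-beta genes tested passed.

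**Figure D5:**
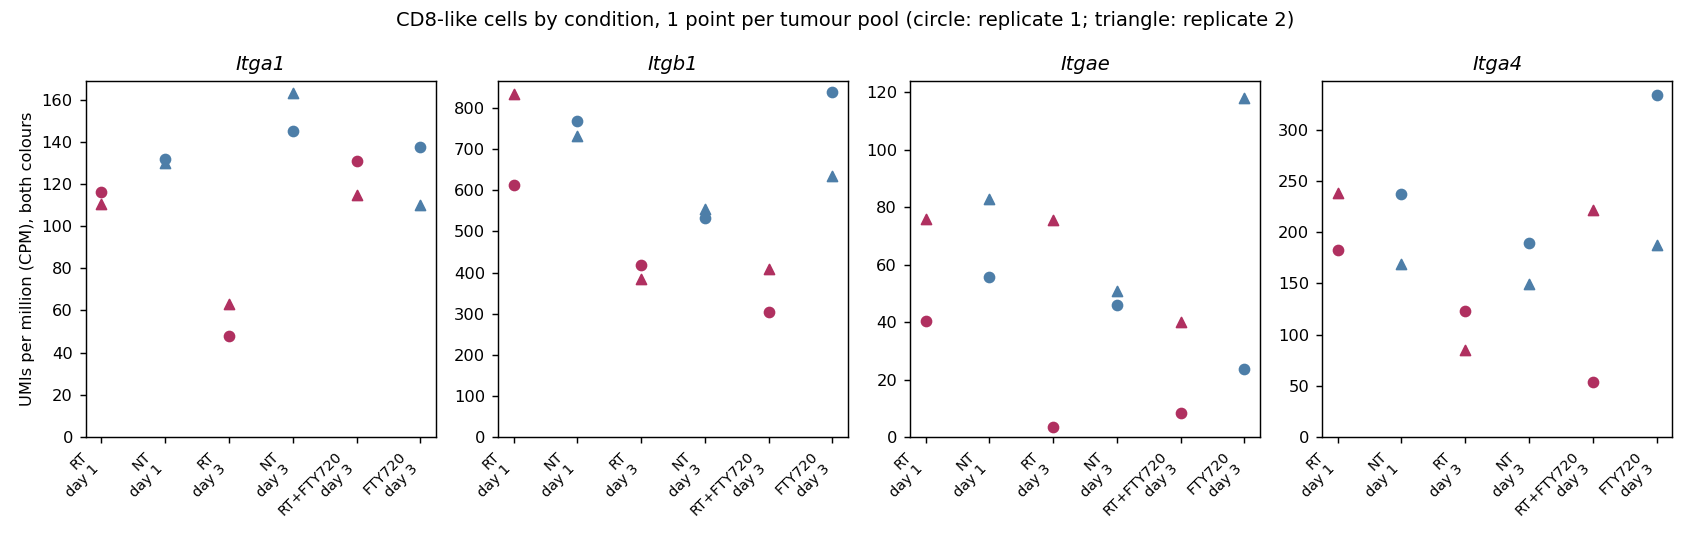
Itga1, Itgb1, Itgae and Itga4 mRNA in CD8-like cells of each tumour pool by condition, both colours summed, in CPM; circles are replicate 1 and triangles replicate 2, with irradiated tumours in dark red and the others in blue. The 2 RT day 3 pools have the lowest Itga1 (48.1 and 62.9 CPM), and the RT+FTY720 pools lie below the FTY720 pools for Itgb1.

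Split by colour over all 3 strata (day 1, day 3 and day 3 with FTY720), no integrin gene passed. In red CD8-like cells 0 of 8 passed, where 0.819% of 8908 genes did, with 2 at an unadjusted p below 0.05 and 0 by DESeq2. Itgb1 was at -0.59 ± 0.18 (adjusted p = 0.214) and Itgae at -1.15 ± 0.42 (adjusted p = 0.371), and both passed without RT day 1 replicate 2 (-0.73, adjusted p = 0.0412, and -1.68, adjusted p = 0.0447). In green CD8-like cells 0 of 8 passed, where 4.87% of 7224 genes did, with 0 at an unadjusted p below 0.05 and 0 by DESeq2, and values from -0.39 ± 0.41 for Itga4 to 0.47 ± 0.64 for Itgae. In red Treg-like cells 0 of 7 tested passed, where 1.09% did (2 at an unadjusted p below 0.05, 0 by DESeq2), and in green Treg-like cells 0 of 8, where 0.0231% did (0 and 0); there Itgb1 passed without RT day 1 replicate 2 (1.57 ± 0.34, adjusted p = 0.0299). In CD4 conventional-like cells 0 of 8 passed, where 0.0755% did (1 and 0).

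In Treg-like cells with colours summed, 0 of 8 passed for radiation at day 3, where 1.49% of 7942 genes did (1 at an unadjusted p below 0.05, 0 by DESeq2), and 0 of 8 at day 1, where 0.0378% did (0 and 0). Itgae had 145 and 296 CPM in RT day 3 pools and 362 and 436 CPM in NT day 3 pools of other wells, and did not pass (-0.78 ± 0.32, adjusted p = 0.322). The RT sums held 6 red and 6 green cells in replicate 1 and 16 and 2 in replicate 2. Those of NT held 17 red and 25 green cells in replicate 1 and 67 and 37 in replicate 2.

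FTY720 against no FTY720 at day 3 averages RT+FTY720 against RT, within shared wells, and FTY720 against NT, where the well and the drug cannot be told apart. It gave 0 of 8 in CD8-like cells, where 0.00978% did (1 at an unadjusted p below 0.05, 0 by DESeq2), and 0 of 8 in Treg-like cells, where 0% did (2 and 0). In Treg-like cells Itga1 had 0 UMIs in 43 cells of FTY720-treated tumours, with 706910 UMIs in all, and 50 UMIs in 176 cells of tumours without it (15.2 CPM). These counts are sums over the cells of several pools, and cells are not replicates of a treatment, so no fold is drawn from them. After thinning, Itga1 was detected in 8.84% of Treg-like cells of all conditions. This lies under the 14.0% of Treg-like cells with a Cd8b1 UMI, so it is not read as expression. In the test over pools Itga1 did not pass (adjusted p = 0.514). The summed counts cross wells. Within shared wells Itga1 had 0 UMIs in 8 and 9 Treg-like cells of RT+FTY720 pools, against 4 and 11 UMIs in 12 and 18 Treg-like cells of RT day 3 pools. NT day 3 against NT day 1 gave 0 of 8 in CD8-like cells, where 0.0293% did (2 at an unadjusted p below 0.05, 0 by DESeq2), and 0 of 8 in Treg-like cells, where 0% did (0 and 0). Itgb7 in CD8-like cells had 92.3 and 96.6 CPM at NT day 3 and 175 and 177 CPM at NT day 1, without overlap (-0.91 ± 0.27, adjusted p = 0.601). CD8-like cells of expanded T cell receptor clones, found in 2 or more cells, were set against those seen once, and 0 of 8 passed, where 0.176% of 10247 genes did (2 at an unadjusted p below 0.05, 0 by DESeq2), with values from -0.34 ± 0.22 for Itga4 and -0.34 ± 0.14 for Itgb7 to 0.24 ± 0.15 for Itgav.

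Genes most like each integrin in level were taken over 45 sums of pools and classes, which share libraries, among 3724 genes. Itgae was most like Tln1 (talin, which links integrins to actin; Pearson r = 0.745), Itga1 most like the NK receptor gene Klrc1 (r = 0.869) and Fasl (r = 0.839), and Itga4 most like Pip4k2a (r = 0.853). Itgav was most like Cd74 (r = 0.903), Itgal like Pstpip1 (r = 0.899), Itgb1 like Ccdc50 (r = 0.872), Itgb2 like Capns1 (r = 0.879) and Itgb7 like Ass1 (r = 0.866). These are descriptions of differences between classes.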

How the data were processed

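The data come from 4 10x Genomics wells of T cells of MC38 tumours, sorted on CD90.2 and Kaede colour (a GEM-X 5′ kit, version 3, per the labels' protocols). The values in the deposited matrices are raw counts of UMIs for each barcode and gene or hashtag. Per the file headers, Cell Ranger 8.0.1 wrote them, and the submitters' processing notes name build mm39. Any later filter by the authors is not given in the sources used. The deposited contig tables hold counts of T cell receptor reads and UMIs.

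Barcodes were kept with 500 or more genes and no more than 10% of UMIs from mitochondrial genes (2740 of 2816), at a median of 20124 UMIs, and given to the top hashtag with at least 20 UMIs and 3 times the next, which left out 0 cells. No doublet caller was run; 90 cells with 2 or more TCR beta chains were left out as an alternative. Clusters (scanpy 1.11.5; 2000 variable genes, 30 components, 15 neighbours, Leiden resolution 1) were built without the 8 integrin genes. Gates were Cd8a with Cd8b1 at 3 UMIs or more and at least 3 times Cd4 (CD8), Foxp3 at 2 or more (Treg), and Cd4 at 1 or more with no Foxp3 (CD4 conventional); 161 cells (5.88%) lay outside them and 39 cells had both Cd8 and Foxp3. Gates had been planned as the alternative to whole clusters and were exchanged with them after the clusters, and before expression comparisons, were seen. They placed 90.1% of cells in the same class as whole clusters, and 98.4% as clusters with the 8 genes kept. In the latter, 65 of 96 naive CD8-like cells kept their class, 30 moved to the Eomes cluster, and 14 Eomes-cluster cells became CD8-like.

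Sums of counts over the cells of 1 pool, colour and class (5 cells or more) were tested with edgeR 4.0.16 (filterByExpr, TMM, quasi-likelihood, Benjamini-Hochberg at 0.05 over all genes tested), with the pool as block between colours, lineages and clones. The SE is the log2 fold change over the root of F. With 1 or 2 pools a group in the day and treatment tests, all conditions shared 1 estimate of the spread. In data simulated on the red against green comparison of CD8-like cells, 77.5% of genes changed by 1 log2 unit were recovered, and 6.18% of genes called were false. For radiation at day 3, 0.926% were recovered at 1 and 36.8% at 2 log2 units. The simulation gave all genes the same spread, had no differences between pools and changed only genes with enough counts. These shares are therefore not the power of the real tests. Replicate numbers share a well in the labels, and the deviations of same-numbered pools correlated at -0.120 to 0.111 over 15 pairs of conditions in CD8-like cells. Floors and shares cover counting error only. The genes and lists were chosen with earlier results of these data known. The rule for named genes was all 8 integrin genes in every comparison, which the text meets by counts and ranges where few or none passed, up to 4 genes past the threshold by adjusted p in each list, and the most alike genes.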

Additional observations from a re-analysis of the deposited data

Results flagged for a closer look

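Single pools stood far from the others of their group in 9 of 72 groups of 4 to 10 pools tested with Dixon's criterion, each time at the high end. For like draws from a normal distribution the criterion is exceeded in about 1 of 20 groups. Here a group held the irradiated or the unirradiated pools of several conditions. Sums also differed in size, as with 6 red Treg-like cells in RT day 3 replicate 1 and 98 in RT day 1 replicate 2. The 9 of 72 can therefore not be set against that rate. In red CD8-like cells of irradiated tumours, Itga4 was at 206 CPM in RT day 1 replicate 1 (next 89.8 CPM), Itgae at 112 CPM in RT day 1 replicate 2 (next 43.4 CPM) and Itgav at 412 CPM in RT+FTY720 day 3 replicate 2 (next 218 CPM). In green CD8-like cells, Itgae was at 134 CPM in RT day 3 replicate 2 (next 41.7 CPM), and among unirradiated pools FTY720 day 3 replicate 2 had 366 CPM of Itgal (next 292 CPM) and 207 CPM of Itgb7 (next 113 CPM). In red Treg-like cells, Itgal was at 305 CPM in RT day 3 replicate 1 (next 196 CPM) and Itgb2 at 472 CPM in NT day 3 replicate 1 (next 306 CPM). In CD4 conventional-like cells of irradiated tumours, Itgae was at 49.1 CPM in RT+FTY720 day 3 replicate 2 (next 11.9 CPM). Of 32 differences of effects tested between classes, days or treatments, 0 passed.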

How the results depend on the processing

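Of 593 counts of called integrin genes compared between the reported fit and an alternative, 559 stayed within 1.5 times, and of 4671 values of single genes, 4607 kept their direction and their side of the threshold or had passed no test in either. With the label colours, red against green in CD8-like cells gave 0 called, with Itgae at -0.28, Itga1 at 0.29 and Itga4 at 0.56, and with replicate 1 pools only 0. With no low-count filter the counts were 5 for red against green in CD8-like, 2 in Treg-like and 1 in CD4 conventional-like cells, 1 for the colour effect in Treg-like against CD8-like cells, 2 for radiation in red CD8-like cells, 2 for radiation at day 3, 3 for radiation with FTY720 and 1 each for its change between days, FTY720 and NT day 3 against NT day 1 in CD8-like cells, and 1 for FTY720 in Treg-like cells. Treg-like red against green gave 1 with at least 10 cells per sum and 1 with replicate 2 pools only. Marker gates without clusters gave 3 for expanded clones and 3 for radiation with FTY720. The change of the radiation effect between days gave 1 with DESeq2, 1 with upper-quartile scaling and 1 with whole clusters. The causes were not tested. Leaving out 1 pool moved the counts over 1 to 5 for red against green in CD8-like cells, 0 to 1 in Treg-like cells, 0 to 1 for the colour effect in Treg-like against CD8-like cells, 0 to 2 for radiation in red CD8-like cells, 0 to 1 in green Treg-like cells, 0 to 2 for radiation with FTY720 and 0 to 1 for the change between days.

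The count of all genes past the threshold between red and green CD8-like cells was 545, and 821 with DESeq2, 1029 with no filter, 1 with the label colours, 1 with replicate 1 pools only and 247 to 730 with 1 pool left out; for radiation at day 3 it was 453, 893 with no filter and 113 to 498 with 1 pool left out. Between red and green Treg-like cells it was 49, 182 with DESeq2, 358 with no filter and 0 to 72 with 1 pool left out. For radiation with FTY720 it was 283, 466 with DESeq2, 793 with no filter and 61 to 332 with 1 pool left out. A fit with the replicate block for day and treatment changed no count of integrin genes, and the fit without it for colours lost Itgae in CD8-like cells. Many pools had too few cells for the naive CD8-like and Eomes-cluster comparisons to be repeated. Depth limits the treated wells at day 3, so that changes there may be missed. With colours summed a CD8-like sum could rest on 17 cells, and a red Treg-like sum on 5 cells (RT+FTY720 day 3 replicate 1).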
